A study of Homo sapiens with 6 samples.

Results

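The heat shock protein and DNAJ chaperone genes were examined in cardiomyocytes derived from human pluripotent stem cells (hiPSC-CMs). Members were chosen by gene symbol, as every gene of the HSPA, HSPB, HSP90, DNAJA, DNAJB and DNAJC series together with HSPD1, HSPE1 and HSPH1. The choice was made with earlier results of these data known. The symbol rule found 70 of the 21134 genes measured. They comprised 14 HSPA, 8 HSPB, 3 HSP90, 4 DNAJA, 11 DNAJB and 27 DNAJC genes, the pair HSPD1 and HSPE1, and HSPH1. RNA sequencing covered 6 libraries of the H9 line in 3 groups of 2. The control cells received neither alcohol nor losartan. The alcohol group received 100 mM alcohol for 24 h, and the co-treated group received 100 mM alcohol and 1 μM losartan for 24 h. Losartan blocks the angiotensin II type 1 receptor, and no library of losartan alone was analysed here, so its effect could be read only on top of alcohol. H9 is 1 line of human embryonic stem cells, although the labels call the cells induced pluripotent. Nothing in the sources used here says whether the replicates came from separate differentiations, so every p-value measures the spread between these libraries, which may be technical.

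Each library held 4898287 to 5051448 expected counts, which are estimated numbers of reads per gene. Levels are given as FPKM, the fragments assigned to a gene scaled by transcript length and library size. The cardiomyocyte markers TNNT2, TNNI1, TNNI3, MYH6, MYH7, MYL2, MYL7, ACTN2, NKX2-5, RYR2 and PLN were measured in every group and summed to 19692 to 26872 FPKM per library, against 5.88 to 10.5 FPKM for 5 endothelial markers and 425 to 521 FPKM for 8 fibroblast markers. Alcohol replicate 2 stood apart from the other libraries. It had the lowest sum of the 5 smooth muscle markers, with 730 FPKM against 1005 to 1940 elsewhere, of the 12 HIF-1 and glycolysis genes, with 1197 FPKM against 2244 to 3256, and of the cardiomyocyte markers. MYL7 was the largest term of the cardiomyocyte sum. In alcohol replicate 2, MYL7, MYL2, TNNI3 and ACTN2 were at their lowest, and MYH6, TNNI1 and NKX2-5 at their highest, of the 6 libraries. The part of alcohol replicate 2 in the chaperone values was not tested. Without it, the estimate for alcohol against control changed sign or moved by over 1.5 times for 44 of the 63 chaperone genes tested, and a number of values without it are given. In bulk RNA, fewer cells of a type and less RNA per cell cannot be told apart.

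Heat shock proteins keep other proteins folded. HSP70 proteins (the HSPA genes) bind and release unfolded chains in cycles of ATP hydrolysis, J-domain proteins (the DNAJ genes) bring clients and start that hydrolysis, and HSP90 proteins finish the maturation of kinases, receptors and other clients. Small heat shock proteins (the HSPB genes) hold unfolding proteins without ATP and are abundant in striated muscle, where they associate with sarcomere and cytoskeletal filaments, while the chaperonin of HSPD1 and HSPE1 folds proteins inside mitochondria. In the cytosol, protein damage activates the transcription factor HSF1 at heat shock elements, and in the endoplasmic reticulum (ER) the unfolded protein response acts through ER stress response elements.

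The promoters show which chaperone genes carry these elements. RefSeq promoter sequences of build GRCh38.p14 were matched for 64 of the 70 genes, and the 250 bases before each annotated start were searched on both strands. A heat shock element of 3 units was searched as GAANNTTCNNGAA or TTCNNGAANNTTC, and it was found for 6 of the 64 genes (9.38%), namely DNAJB6, HSP90AA1, HSP90AB1, HSPA6, HSPA8 and HSPD1, against 0.557% of 27305 genes. The shorter pattern of 2 units, GAANNTTC or TTCNNGAA, which every 3-unit match also contains, was found for 20 of the 64 (31.2%) against 14.0% of all genes. The ER stress response element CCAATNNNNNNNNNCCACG was found for HSPA5 and HSP90B1, the major HSP70 and HSP90 of the ER, which are 3.12% of the matched members, against 0.0916% of all genes. Such a match is a string of letters and not evidence that a factor was bound. Nor is a missing match in these 250 bases evidence that a gene lacks an element.

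Shown first are the stress-inducible twins HSPA1A and HSPA1B, with the matched element in capitals and 20 flanking bases on each side, because the near identity of these genes limits how their reads can be told apart. Their windows are chr6:31815417-31815464 and chr6:31827613-31827660, both on the plus strand, and the elements lie 99 to 106 and 98 to 105 bases before the start.
HSPA1A: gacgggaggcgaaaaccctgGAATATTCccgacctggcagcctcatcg
HSPA1B: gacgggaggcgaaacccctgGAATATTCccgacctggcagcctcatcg

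The next set holds genes with a 3-unit element, whose levels under alcohol are described with the cytosolic and mitochondrial chaperones. In capitals is the 3-unit match, and for HSPD1 the merged run of overlapping matches, which begins 5 bases inside the searched stretch. The windows are chr14:102087100-102087152 on the minus strand for HSP90AA1, chr11:123062159-123062211 on the minus strand for HSPA8, chr2:197500048-197500090 on the minus strand for HSPD1 and chr7:157336853-157336905 on the plus strand for DNAJB6.
HSP90AA1: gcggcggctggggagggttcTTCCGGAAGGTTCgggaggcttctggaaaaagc
HSPA8: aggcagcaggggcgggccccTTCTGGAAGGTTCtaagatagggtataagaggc
HSPD1: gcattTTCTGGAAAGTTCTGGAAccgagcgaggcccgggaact
DNAJB6: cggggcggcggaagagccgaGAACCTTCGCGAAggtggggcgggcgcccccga

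The small heat shock proteins HSPB1 and HSPB8, which are among the most abundant members, carried a 2-unit element, at chr7:76302471-76302518 and chr12:119178823-119178870, both on the plus strand.
HSPB1: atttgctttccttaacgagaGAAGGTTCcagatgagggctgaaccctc
HSPB8: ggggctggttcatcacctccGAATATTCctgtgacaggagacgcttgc

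The ER members follow, with 1 ER stress response element each in capitals, at chr9:125241371-125241429 on the minus strand for HSPA5 and chr12:103930196-103930254 on the plus strand for HSP90B1.
HSPA5: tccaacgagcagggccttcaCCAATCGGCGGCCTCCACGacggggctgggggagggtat
HSP90B1: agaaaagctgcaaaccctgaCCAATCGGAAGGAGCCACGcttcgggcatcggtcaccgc

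In hiPSC-CMs the small heat shock protein genes HSPB7 and HSPB1 led the members by FPKM. The 70 genes made up 1.07 to 1.25% of all FPKM in a library, and HSPB7 with HSPB1 alone accounted for 33.9 to 43.2% of the members' FPKM. The 10 most abundant members together held 73.5 to 76.3%. Between 10 and 11 members were above 100 FPKM in each library, 6 to 9 were under 1 FPKM, and the median member lay at 14.7 to 16.3 FPKM. By family, the HSPB genes took 42.1 to 52.0% of the members' FPKM, the HSP90 genes 15.3 to 19.7%, the HSPA genes 12.8 to 14.9%, and the 27 DNAJC genes only 7.12 to 8.97%. Among the members, the J-domain families were thus the most numerous and the HSPB genes the most abundant. CRYAB, a small heat shock protein also known as HSPB5, falls outside the symbol rule and is not in these shares. It lay at 626 and 539 FPKM in control, 650 and 439 in alcohol, and 486 and 625 in co-treated libraries.

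**Figure D1:**
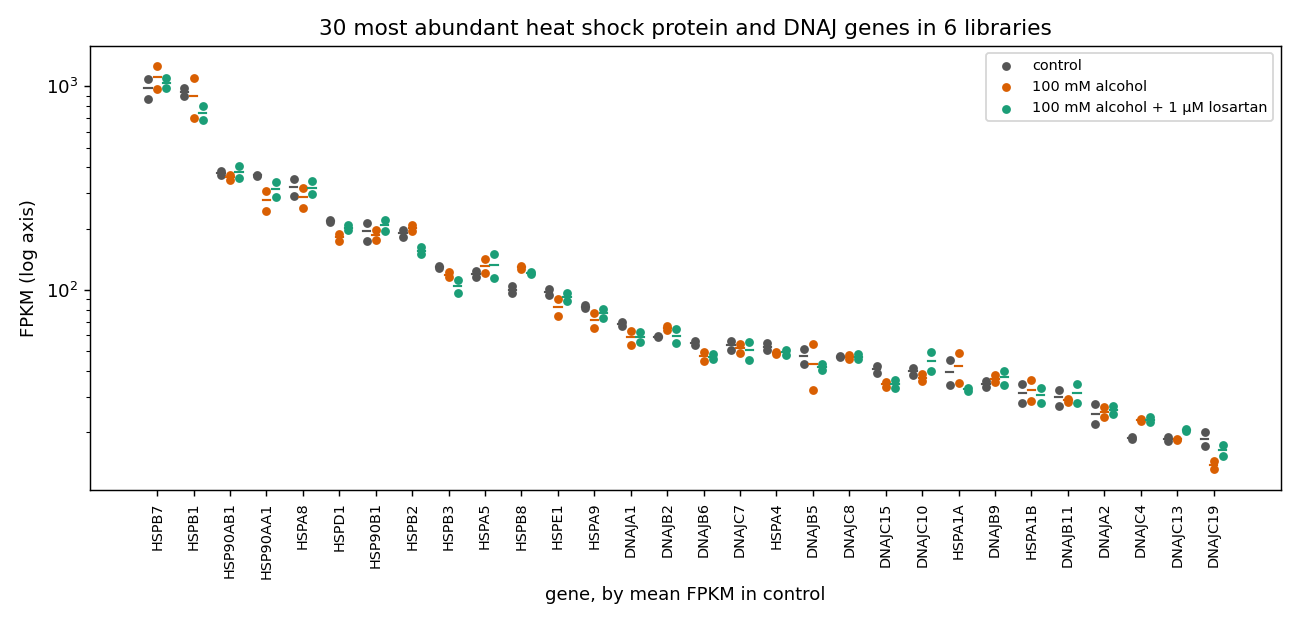
FPKM (log axis) of the 30 members with the highest control mean, in each of the 6 libraries; points are libraries and dashes are group means. HSPB7 and HSPB1 lie between 680 and 1257 FPKM, above every other member. The groups overlap for some genes, such as HSPA5, and not for others, such as HSPD1 and HSPB8.

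After 24 h of 100 mM alcohol, none of the chaperone genes passed the test against control. Of the 70 members, 63 passed the filter on low counts and were tested with edgeR's quasi-likelihood test, and 0 of them reached a Benjamini-Hochberg adjusted p under 0.05, where 10 of 14926 genes did (0.067%). At an unadjusted p under 0.05 there were 7 members, against 11.0% of all genes tested. Of these 1 was higher (HSPB8), against 5.27% of all genes, and 6 were lower (HSP90AA1, DNAJA4, DNAJC19, HSPD1, DNAJC15 and DNAJB6), against 5.78%. DESeq2 likewise called 0 members after adjustment, with 4 at an unadjusted p under 0.05. The direction of the 63 estimates was uneven, with 40 below 0 (63.5%) against 50.6% of all genes, and a median log2 fold change of −0.09 against −0.00 for all genes. Without alcohol replicate 2 the median was −0.02, with 35 of 63 below 0.

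Losartan on top of alcohol likewise gave no chaperone gene past the threshold. Compared with alcohol alone, 0 of 63 members were called, where 2 of 14926 genes were (0.0134%). A single member, HSPB2, had an unadjusted p under 0.05, against 5.55% of all genes, and DESeq2 called 0 with 1 at that level. HSPB2 was lower, as were 2.71% of all genes, and 0 members were higher, against 2.84%. The estimates lay on both sides of 0, with 34 above and 29 below (46.0%, against 49.7% of all genes), and their median was 0.01. Co-treated against control, 0 of 63 members were called by edgeR and by DESeq2, against 0.362% of all genes, and 6 members had an unadjusted p under 0.05 (5 by DESeq2), against 12.6% of all genes. Of these 1 was higher (DNAJC16), against 6.26% of all genes, and 5 were lower (DNAJA4, HSPB2, HSPB3, DNAJB6 and DNAJC15), against 6.37%. Here 34 of 63 estimates were below 0 (54.0%, against 50.2% of all genes). The 3 comparisons share libraries, since the control and alcohol groups each serve in 2 of them, so their values are not independent of each other.

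The intervals show how large a difference could have gone undetected. The median standard error of a member's log2 fold change was 0.15, and the median 95% interval reached 0.33 on either side of the estimate. The interval lay wholly between −1 and 1, that is within a doubling or a halving, for 57 of 63 members in alcohol against control, and for 59 of 63 in each of the other comparisons. The 6 exceptions under alcohol were DNAJC17, DNAJC5G, DNAJC28, DNAJC22, HSPA1L and HSPA12A, all low in abundance, with less than 10 FPKM in each library. Within −0.5 to 0.5, the interval lay for 31 members under alcohol, 39 for co-treated against alcohol and 33 for co-treated against control. The largest estimates were 0.83 for HSPA12A under alcohol, 0.50 for HSPA1L in co-treated against alcohol and 0.71 for DNAJC5G in co-treated against control, none of them called. Leaving out 1 library in turn changed the sign of the estimate at least once for 27 of the 63 members in alcohol against control, for 39 in co-treated against alcohol and for 28 in co-treated against control. The gap between replicates of the same group was a median of 0.13 log2 CPM for members in control, 0.20 in alcohol and 0.18 in the co-treated group.

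**Figure D2:**
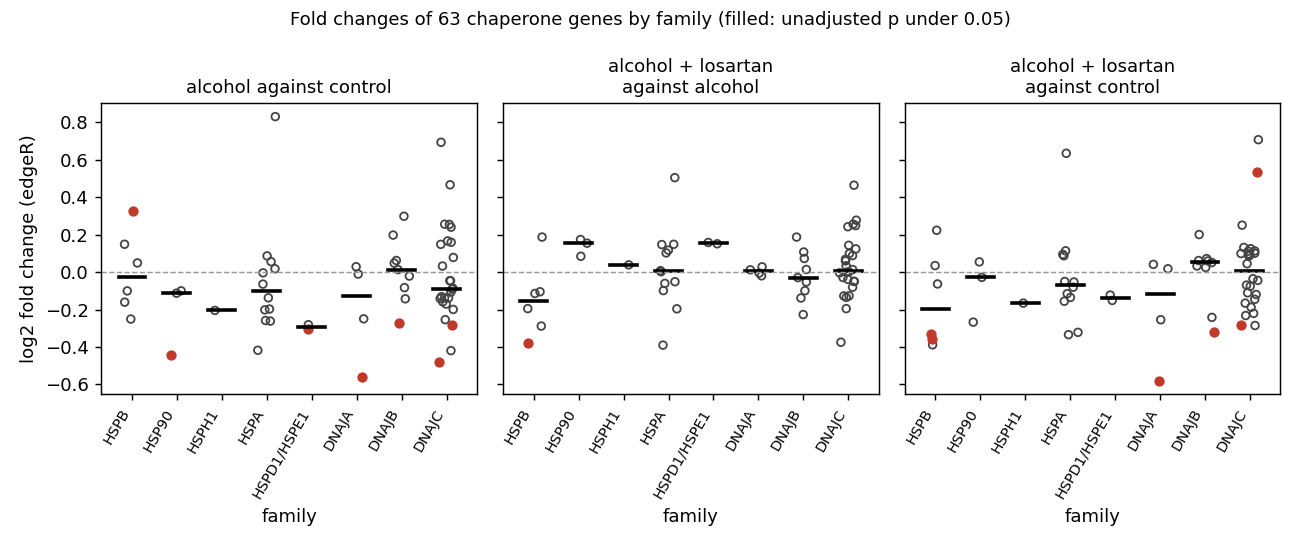
log2 fold change (edgeR) of the 63 tested members by family in the 3 comparisons; each point is a gene, bars are family medians, and filled red points have an unadjusted p under 0.05. Most points lie between −0.5 and 0.5, and 0 genes passed the adjusted threshold.

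Among the cytosolic chaperones, HSP90AA1, the inducible form of HSP90, had the smallest p under alcohol. It lay at 368 and 362 FPKM in control, at 306 and 245 in alcohol, and at 287 and 339 in the co-treated libraries. All 4 alcohol-exposed libraries were below both controls, and the co-treated libraries overlapped those of alcohol alone. For alcohol against control the log2 fold change was −0.44 (95% interval −0.77 to −0.11, edgeR adjusted p = 0.295), and it was −0.25 without alcohol replicate 2. HSP90AB1, the constitutive form, lay at 385 and 367, 349 and 366, and 357 and 405 FPKM in the same order, with a log2 fold change of −0.11 (−0.39 to 0.16) under alcohol. The ratio of HSP90AB1 to HSP90AA1 in FPKM was 1.05 and 1.01 in control, 1.14 and 1.50 in alcohol, and 1.24 and 1.19 in co-treated libraries, so the 2 genes were closest to parity in control.

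The constitutive HSP70 gene HSPA8 lay at 349 and 290 FPKM in control, 316 and 254 in alcohol, and 295 and 342 in co-treated libraries. The groups overlapped, and alcohol against control gave −0.20 (−0.54 to 0.14). HSPA8 carries 3-unit elements like HSP90AA1, but its controls differed from each other by more than the group means did. Without alcohol replicate 2 its log2 fold change was −0.02, and without control replicate 1 it was −0.03.

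The inducible HSP70 genes, the classical readout of a heat shock response, overlapped between control and alcohol. HSPA1A lay at 45.1 and 34.2 FPKM in control, 49.3 and 35.2 in alcohol, and 33.0 and 32.1 in co-treated libraries. The groups overlapped, and the log2 fold change was 0.06 (−0.33 to 0.44), which was −0.24 without alcohol replicate 1 and 0.31 with replicate 2 left out instead. For co-treated against alcohol it was −0.39 (−0.78 to 0.00, edgeR adjusted p = 0.897), and both co-treated libraries were below both alcohol libraries. Alcohol replicate 1 carried most of this difference, since without it the value was −0.09, and without alcohol replicate 2 it was −0.65. HSPA1B lay at 34.5 and 27.8, 36.1 and 28.7, and 33.0 and 28.0 FPKM, and its log2 fold changes were 0.02 under alcohol and −0.10 for co-treated against alcohol. The twins are nearly the same sequence: 72.6% of the 50-base windows of the HSPA1A transcript also occur in HSPA1B, so the division of reads between them is an estimate. Summed over both genes, the expected counts were 1004 and 779 in control, 1076 and 781 in alcohol, and 809 and 755 in co-treated libraries. For the sum, the log2 fold change was 0.04 under alcohol and −0.25 for co-treated against alcohol (edgeR adjusted p = 0.919).

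HSPA6, an HSP70 gene that is nearly silent until heat shock, was at or below 4 counts in every library, with 1 and 0 in control, 0 and 4 in alcohol, and 0 and 0 in co-treated libraries. It failed the count filter, and no fold change is given. At this depth 3 counts correspond to 0.594 to 0.612 CPM, and HSPA6 exceeded that level only in alcohol replicate 2.

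The J-domain partners of the cytosolic HSP70s and the nucleotide exchange factor HSPH1 were not called either. DNAJB1, the main inducible J-domain protein, lay at 13.9 and 12.9 FPKM in control, 15.1 and 13.7 in alcohol, and 13.9 and 14.7 in co-treated libraries, with overlapping groups and a log2 fold change under alcohol of 0.06 (−0.28 to 0.40). HSPH1 lay at 16.8 and 15.1, 14.5 and 13.8, and 13.8 and 15.4 FPKM, with −0.20 (−0.49 to 0.08), and both alcohol libraries were below both controls. DNAJA1, a farnesylated J-domain protein of the cytosol, lay at 69.5 and 66.5, 63.2 and 54.0, and 55.5 and 62.1 FPKM. Its 4 exposed libraries were below both controls, and the log2 fold change was −0.25 (−0.53 to 0.03) under alcohol and −0.10 without alcohol replicate 2. DNAJC7, the most abundant DNAJC gene, encodes a J-domain protein that also binds HSP90, and it lay at 50.8 and 56.5, 49.2 and 54.3, and 45.6 and 55.8 FPKM. Its groups overlapped, with −0.11 (−0.39 to 0.17) under alcohol.

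DNAJA4, a relative of DNAJA1, had the lowest estimate of any tested member under alcohol. It lay at 14.7 and 13.2 FPKM in control, 11.3 and 8.16 in alcohol, and 10.9 and 8.37 in co-treated libraries, so the exposed libraries were all below the controls but spread widely among themselves. Under alcohol its log2 fold change was −0.56 (−0.99 to −0.13, edgeR adjusted p = 0.311), and it was −0.58 (−1.01 to −0.15, edgeR adjusted p = 0.244) for co-treated against control. Without alcohol replicate 2 the former was −0.30.

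DNAJB6, which suppresses aggregation and supports filament quality control in muscle, lay at 53.6 and 56.1 FPKM in control, 49.7 and 45.0 in alcohol, and 45.7 and 48.4 in co-treated libraries. The log2 fold change was −0.27 (−0.53 to −0.01, edgeR adjusted p = 0.430) under alcohol and −0.32 (−0.58 to −0.06, edgeR adjusted p = 0.284) for co-treated against control. DNAJB2, a neuronally enriched J-domain protein that passes clients to the proteasome, was on the other side, with 58.6 and 59.5, 66.9 and 63.9, and 64.1 and 54.9 FPKM, and a log2 fold change of 0.20 (−0.07 to 0.46) under alcohol.

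Taking the 10 genes listed as heat-inducible (HSPA1A, HSPA1B, HSPA6, HSPH1, HSP90AA1, DNAJB1, DNAJA1, HSPB1, HSPA4L and DNAJA4), 9 were tested, and 0 were called in any comparison. Under alcohol 6 of the 9 estimates were below 0, with a median log2 fold change of −0.10. This median was −0.27 without alcohol replicate 1 and −0.02 without control replicate 1. For co-treated against control 7 of the 9 were below 0, with a median of −0.25, and without control replicate 1 it was 6 of 9 with a median of −0.10. The median for co-treated against alcohol was −0.02, with 6 of 9 below 0, which became 1 of 9 and 0.11 without alcohol replicate 1. The members with a 2-unit heat shock element were also mostly below 0 under alcohol, in 13 of 17 with a median of −0.16, against 24 of 41 with a median of −0.06 among matched members without one. The group without a match included HSPH1, itself on the heat-inducible list, and HSPE1, the co-chaperonin of HSPD1. The contrast also depended on single libraries. Without control replicate 1 the medians were −0.05 with an element (12 of 17 below 0) and −0.06 without (24 of 41), and with alcohol replicate 2 left out they were −0.08 (11 of 17) and −0.00 (21 of 41). For co-treated against alcohol both medians were near 0, at −0.01 with and 0.01 without an element, and for co-treated against control they were −0.15 and 0.03, the latter being −0.09 without co-treated replicate 2. All 5 tested genes with a 3-unit element were below 0 under alcohol, with a median of −0.27, and 3 of them (HSP90AA1, HSPD1 and DNAJB6) are among the 6 lower members already named.

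**Figure D3:**
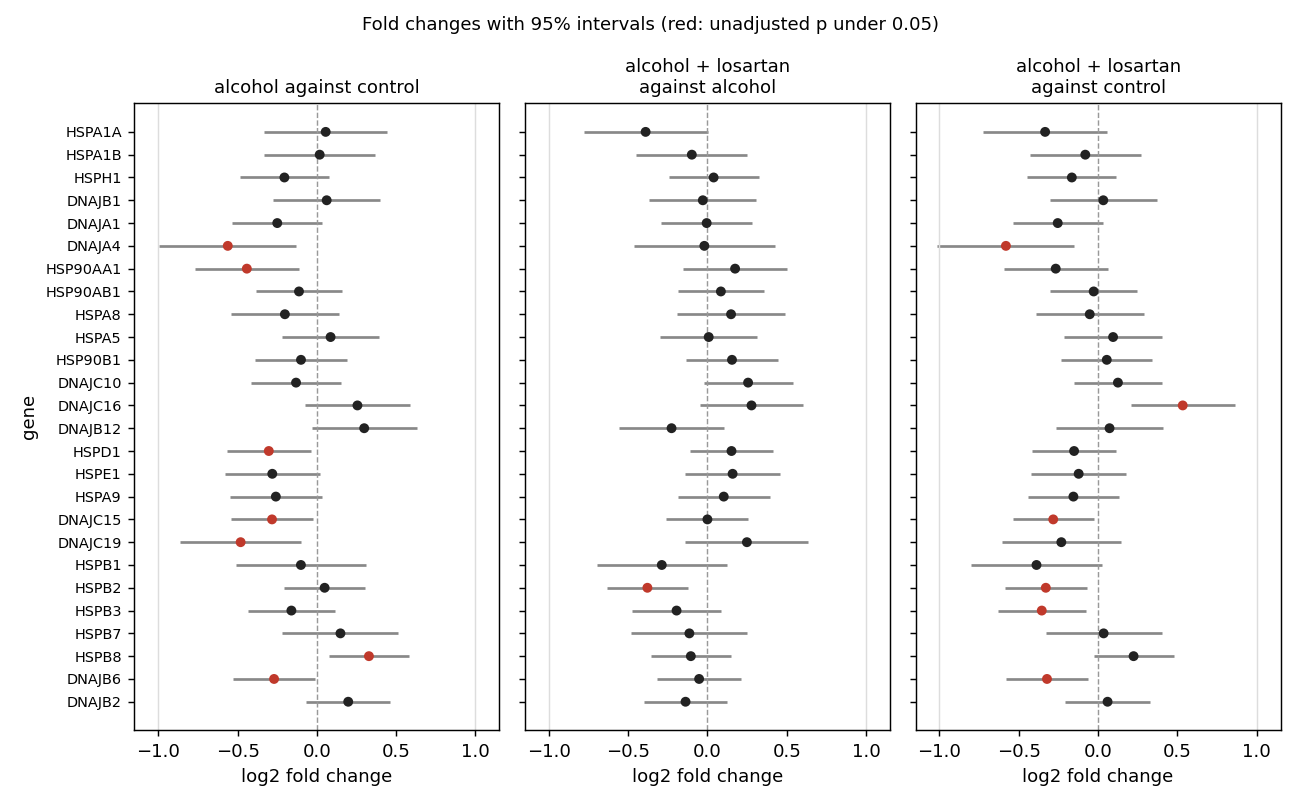
log2 fold change with 95% interval (edgeR) for 26 members, ordered from cytosolic through ER and mitochondrial genes to small heat shock proteins and muscle J-domain genes, in the 3 comparisons; red marks an unadjusted p under 0.05. The red points under alcohol are HSPB8 at 0.33 and 6 genes between −0.27 and −0.56.

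The small heat shock proteins, the most abundant members, divided among themselves. HSPB7, a cardiovascular small heat shock protein, lay at 1086 and 871 FPKM in control, 1257 and 967 in alcohol, and 1096 and 978 in co-treated libraries. The groups overlapped in every comparison, and the log2 fold changes were 0.15 (−0.22 to 0.51) under alcohol, with 0.36 when alcohol replicate 2 was left out and −0.09 when replicate 1 was, and −0.11 (−0.48 to 0.25) for co-treated against alcohol. HSPB1, which encodes HSP27, lay at 980 and 898, 1093 and 697, and 804 and 680 FPKM. The alcohol replicates of HSPB1 spanned the range of all 6 libraries but for the lower co-treated one, and the log2 fold change for co-treated against alcohol, −0.29 (−0.70 to 0.12), was 0.11 without alcohol replicate 1.

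HSPB8, which works with BAG3 in the selective autophagy of damaged filaments, was the only member with an unadjusted p under 0.05 and an estimate above 0 under alcohol. It lay at 105 and 96.4 FPKM in control, 132 and 127 in alcohol, and 123 and 120 in co-treated libraries. All 4 exposed libraries were above both controls, and the co-treated libraries were both below those of alcohol alone. The log2 fold change was 0.33 (0.08 to 0.58, edgeR adjusted p = 0.311) under alcohol, −0.10 for co-treated against alcohol, and 0.22 (edgeR adjusted p = 0.462) for co-treated against control.

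HSPB2 and HSPB3, muscle proteins that assemble with each other, had their lowest levels in the co-treated libraries. HSPB2 lay at 197 and 183 FPKM in control, 208 and 196 in alcohol, and 162 and 151 in co-treated libraries, the latter both below all 4 others. The log2 fold change was 0.05 under alcohol, −0.38 (−0.64 to −0.12, edgeR adjusted p = 0.836) for co-treated against alcohol, and −0.33 (edgeR adjusted p = 0.265) for co-treated against control. HSPB3 lay at 131 and 129, 123 and 116, and 96.9 and 112 FPKM, with log2 fold changes of −0.16, −0.19 and −0.36 in the same order (edgeR adjusted p = 0.265 for the last). Of the HSPB2 transcript, 52.3% of 50-base windows also occur in the read-through gene HSPB2-C11orf52, which held at most 10.6 expected counts in any library. That division of reads is itself an estimate. Summed over both genes, the counts were 842 and 769 in control, 877 and 810 in alcohol, and 662 and 641 in co-treated libraries. No fold change was fitted to this sum. HSPB6, another muscle member, was near absent, with 2 to 11 counts, and was not tested.

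Over HSPB1, HSPB2, HSPB3, HSPB7 and HSPB8, all 5 estimates for co-treated against alcohol were below 0, with a median of −0.19, against 49.7% of all genes below 0. This rested in part on alcohol replicate 1, without which 3 of the 5 were below 0 and the median was −0.05. For co-treated against control 3 of the 5 were below 0, with a median of −0.33. Under alcohol 3 of the 5 were above 0, with a median of 0.05. Leaving out alcohol replicate 2 gave 0.22, leaving out alcohol replicate 1 gave −0.09, and without either control replicate it was 0.13 (replicate 1) or −0.00 (replicate 2). None of the 5 was called in any comparison. Smooth muscle markers differed beside these values, with estimates below 0 for 5 of 5 under alcohol, and they summed to 1940 and 1700 FPKM in control, 1463 and 730 in alcohol, and 1005 and 1044 in co-treated libraries. ACTA2 was called among them for co-treated against control, with a log2 fold change of −1.25 (edgeR adjusted p = 0.0203). That call was kept in 10 of 15 alternatives and lost, among others, without co-treated replicate 1 (edgeR adjusted p = 0.157) or replicate 2 (0.349). Cardiomyocyte markers summed to 26872 and 26255, 26189 and 19692, and 22506 and 24589 FPKM. MYL7 was the largest term of this sum, at 9321 to 16180 FPKM. By estimate, 7 of the 11 markers were above 0 under alcohol (median 0.03). For co-treated against alcohol, 9 of the 11 were below 0 (median −0.02). The part of cell composition in the HSPB values was not tested.

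Most of the 8 members listed as mitochondrial had estimates below 0 under alcohol, and none was called. The list was drawn up with earlier results of these data known, and it leaves out mitochondrial chaperones outside the symbol rule. HSPD1, the chaperonin HSP60, lay at 221 and 215 FPKM in control, 189 and 174 in alcohol, and 197 and 209 in co-treated libraries. The groups did not overlap: control was above co-treated, and co-treated was above alcohol. Alcohol against control gave a log2 fold change of −0.30 (−0.57 to −0.04, edgeR adjusted p = 0.382), with 0.15 for co-treated against alcohol and −0.15 for co-treated against control. Its co-chaperonin HSPE1 lay at 94.2 and 101, 90.4 and 74.4, and 88.7 and 96.5 FPKM, with a log2 fold change of −0.28 (−0.58 to 0.02) under alcohol, which was −0.11 without alcohol replicate 2. The ratio of HSPD1 to HSPE1 in FPKM stayed between 2.09 and 2.35 in all 6 libraries.

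HSPA9, the mitochondrial HSP70 that pulls proteins through the import channel, lay at 84.1 and 81.7, 77.3 and 64.8, and 72.7 and 81.1 FPKM, with −0.26 (−0.55 to 0.03) under alcohol. This was −0.10 when alcohol replicate 2 was left out and −0.42 when replicate 1 was. Its J-domain partners at the import motor, DNAJC19 and DNAJC15, had estimates on the same side. DNAJC19 lay at 17.2 and 20.0, 13.2 and 14.4, and 15.4 and 17.3 FPKM, with a log2 fold change of −0.48 (−0.86 to −0.10, edgeR adjusted p = 0.329) under alcohol and 0.25 for co-treated against alcohol. DNAJC15 lay at 39.0 and 42.6, 33.5 and 35.5, and 32.9 and 36.3 FPKM, with −0.28 under alcohol and −0.28 for co-treated against control (edgeR adjusted p = 0.402 and 0.337). Loss of DNAJC19 is known as a cause of a dilated cardiomyopathy syndrome.

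Over the 8 listed mitochondrial members (HSPA9, HSPD1, HSPE1, DNAJA3, DNAJC11, DNAJC15, DNAJC19 and DNAJC30), 6 estimates were below 0 under alcohol (75.0%, against 50.6% of all genes). Of these, 3 had an unadjusted p under 0.05, against 5.78% of all genes at that level in the lower direction. The median log2 fold change of the 8 was −0.27, and −0.10 without alcohol replicate 2. DNAJA3 and DNAJC30, a J-domain protein of the mitochondrial matrix and 1 of the inner membrane, were at 0.03 and 0.17. For co-treated against alcohol the median of the 8 was 0.06 (−0.03 when alcohol replicate 2 was left out and 0.18 when replicate 1 was), and for co-treated against control it was −0.14.

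The HSPE1 value depended on how reads were divided with a neighbouring gene. HSPE1-MOB4 is a read-through transcript of HSPE1 into the next gene, MOB4, and 16.0% of the 50-base windows of the HSPE1 transcript also occur in it. HSPE1 held 449 and 481 expected counts in control, 431 and 344 in alcohol, and 410 and 458 in co-treated libraries. HSPE1-MOB4 held 70.1 and 62.1 in control, 0 and 0 in alcohol, and 39.1 and 118 in co-treated libraries. It was among the 10 genes called in alcohol against control and the 2 called in co-treated against alcohol (edgeR adjusted p = 0.0186 and 0.0160), with both alcohol libraries listed at 0. Neither call held throughout. In alcohol against control 9 of the 12 alternatives that gave an adjusted p kept it, and it was lost without alcohol replicate 2 (edgeR adjusted p = 0.0924), with no expression filter (0.0693) and in limma on log2(FPKM + 1) (0.162). In co-treated against alcohol 10 of 13 kept it, and it was lost without co-treated replicate 2 (edgeR adjusted p = 0.106), with no expression filter (0.0648) and in the same limma fit (0.446). Why the alcohol libraries were at 0 was not tested. HSPE1-MOB4 together with MOB4, its other overlapping gene, held 546 and 579, 539 and 506, and 566 and 677 counts, so with MOB4 added, alcohol replicate 1 was near the controls and alcohol replicate 2 was the lowest library. With HSPE1 and HSPE1-MOB4 summed, the counts were 519 and 543, 431 and 344, and 449 and 576. Under alcohol the log2 fold change was then −0.47 (edgeR adjusted p = 0.254) in place of −0.28, and for co-treated against alcohol 0.40 in place of 0.16.

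**Figure D4:**
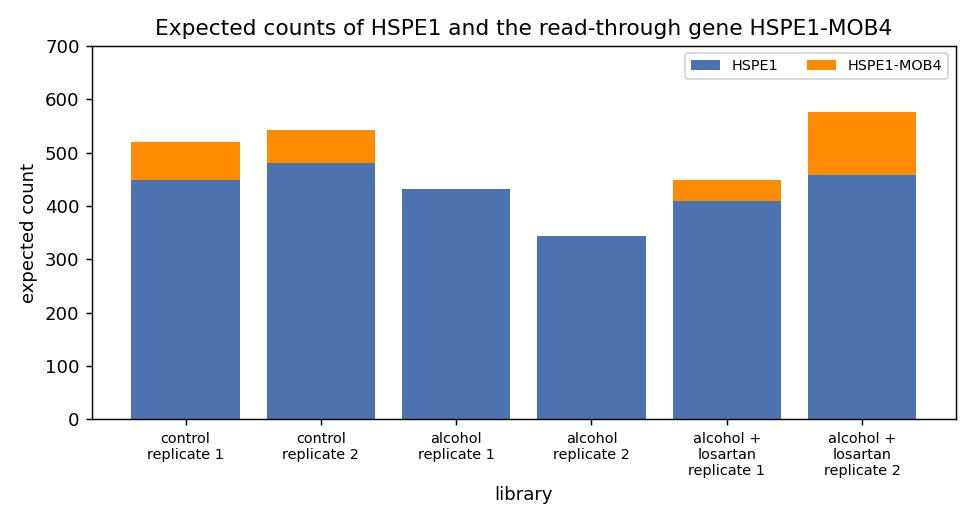
Expected counts of HSPE1 (blue) and of the read-through gene HSPE1-MOB4 (orange) stacked for each of the 6 libraries. HSPE1-MOB4 is at 0 in both alcohol libraries and at 39.1 to 118 in the other 4, and the stacked total is lowest, at 344, in alcohol replicate 2.

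Other genes shared sequence too. Of all 70 members, 6 shared over 5% of their 50-base windows with another gene in the table, which besides those above were DNAJC4, with 20.0% in NUDT22, and DNAJC25, with 14.0% in the read-through gene DNAJC25-GNG10. The latter held 13.3 counts in alcohol replicate 1 and 0 elsewhere. With DNAJC25 and DNAJC25-GNG10 summed, the log2 fold change of DNAJC25 under alcohol was 0.00 in place of −0.14, and for co-treated against alcohol it was −0.19 in place of −0.05. Reads of DNAJC4 and NUDT22 were not summed. The members DNAJC9, DNAJC3, DNAJC27 and DNAJB5 have an antisense gene in the table, and whether counting used the strand is not given in the sources used here, so their reads may include those of the antisense gene.

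The leading ER chaperones overlapped between the groups. HSPA5, also known as BiP and the sensor-bound HSP70 of the ER, lay at 116 and 125 FPKM in control, 121 and 142 in alcohol, and 115 and 150 in co-treated libraries. The groups overlapped, and the log2 fold change was 0.09 (−0.22 to 0.39) under alcohol and 0.01 (−0.30 to 0.32) for co-treated against alcohol. HSP90B1, which encodes GRP94, lay at 175 and 213, 175 and 197, and 194 and 222 FPKM, with −0.10 (−0.39 to 0.19) under alcohol and 0.15 for co-treated against alcohol. These are the members with an ER stress response element in their promoters.

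Over the 13 ER members (HSPA5, HSP90B1, HSPA13, DNAJB9, DNAJB11, DNAJB12, DNAJB14, DNAJC1, DNAJC3, DNAJC10, DNAJC16, DNAJC18 and DNAJC25), 0 were called. Under alcohol the median was −0.06, with 7 of 13 below 0, and its sign turned without alcohol replicate 2 (0.03, 5 of 13 below 0) and without control replicate 2 (0.05, 5 of 13). The median was 0.10 for co-treated against alcohol and 0.06 for co-treated against control, with 9 of 13 above 0 in each. Without co-treated replicate 2 these medians were −0.02 and −0.07. DNAJC10, an ER disulfide reductase, lay at 38.4 and 41.4, 35.7 and 38.6, and 39.9 and 49.7 FPKM, with 0.26 (−0.02 to 0.54) for co-treated against alcohol. DNAJB12, a J-domain protein of the ER membrane, lay at 7.14 and 6.44, 8.89 and 8.72, and 8.09 and 7.58 FPKM, with 0.30 (−0.03 to 0.63) under alcohol and −0.23 for co-treated against alcohol. Both alcohol libraries of DNAJB12 were above both co-treated libraries, which in turn were above both controls.

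DNAJC16, a J-domain protein of the ER membrane, had the smallest p of any member for co-treated against control. It lay at 5.39 and 6.28 FPKM in control, 6.35 and 7.98 in alcohol, and 8.86 and 8.57 in co-treated libraries, so that the groups were ordered without overlap. The log2 fold change was 0.53 (0.21 to 0.86, edgeR adjusted p = 0.147) for co-treated against control, 0.26 under alcohol and 0.28 for co-treated against alcohol.

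The remaining members named by rank were mostly scarce. HSPA12A, an atypical HSP70, lay at 0.41 and 0.65 FPKM in control, 1.09 and 0.84 in alcohol, and 0.95 and 0.76 in co-treated libraries, with a log2 fold change of 0.83 (−0.04 to 1.70) under alcohol. DNAJC5G, a relative of the cysteine string protein, lay at 3.50 and 3.20, 3.71 and 7.95, and 6.27 and 5.36 FPKM, and its estimate of 0.69 under alcohol was −0.00 without alcohol replicate 2. DNAJC5, the cysteine string protein of secretory vesicles, lay at 11.4 and 10.8, 14.0 and 11.5, and 11.2 and 11.3 FPKM, with −0.19 (−0.51 to 0.12) for co-treated against alcohol. These 3 genes were not called.

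For co-treated against alcohol, the members with the smallest p above 0 were DNAJC21, DNAJC10, DNAJC16, DNAJC19, DNAJC13 and HSPD1. DNAJC21, a ribosome biogenesis factor, lay at 12 and 11.9, 10.5 and 11.9, and 13.4 and 13.1 FPKM, with 0.24 (−0.02 to 0.50). DNAJC13, which acts in endosomal sorting, lay at 18.2 and 19.0, 18.5 and 18.6, and 20.8 and 20.4 FPKM, with 0.14 (−0.10 to 0.38). The co-treated libraries of both genes were above the other 4. DNAJC4 lay at 19.1 and 18.5, 23.2 and 22.8, and 22.5 and 23.7 FPKM, with 0.25 under alcohol and 0.25 for co-treated against control. DNAJB14, an ER membrane partner of DNAJB12, lay at 6.66 and 7.78, 7.79 and 7.13, and 7.51 and 9.58 FPKM, with 0.20 for co-treated against control and overlapping groups.

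Counting members whose 4 alcohol-exposed libraries all lay on one side of both controls in FPKM gave 8 above and 8 below, each 12.7% of the 63. Above were HSPB8, DNAJC4, DNAJB12, DNAJC18, DNAJC16, DNAJC5G, DNAJC27 and HSPA12A, against 14.8% of all genes tested. Below were HSP90AA1, HSPD1, HSPB3, HSPA9, DNAJA1, DNAJB6, DNAJC15 and DNAJA4, against 8.39% of all genes. The 2 sets differed in abundance, since 7 of the 8 genes above lay under 25 FPKM, while 7 of the 8 genes below lay above 30 FPKM in every library.

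Co-chaperones and regulators outside the rule were read from a separate list of 39 genes, of which 38 were in the table and 37 were tested. None was called in the fit of all libraries. The list was drawn up with earlier results of these data known. Under alcohol 27 of 37 were below 0 (73.0%, against 50.6% of all genes), with a median of −0.12. At an unadjusted p under 0.05 were 4 of them, against 5.78% of all genes in that direction, and 0 of those above 0, against 5.27%. For co-treated against control 26 of 37 were below 0 (70.3%, against 50.2% of all genes), with a median of −0.11. For co-treated against alcohol the median was 0.01. STIP1, which hands clients from HSP70 to HSP90, lay at 71.2 and 72.9 FPKM in control, 57.6 and 51.6 in alcohol, and 56.7 and 57.8 in co-treated libraries. Its log2 fold change was −0.44 (edgeR adjusted p = 0.179) under alcohol and −0.38 (edgeR adjusted p = 0.201) for co-treated against control. HSPBP1, a nucleotide exchange factor of HSP70, lay at 18.8 and 19.9, 16.0 and 12.5, and 13.6 and 9.90 FPKM, and for co-treated against control it had the lowest estimate of the list, −0.78 (edgeR adjusted p = 0.0987). UNC45B, the myosin chaperone of striated muscle, lay at 114 and 104, 101 and 76.3, and 77.2 and 78.1 FPKM, with −0.33 (edgeR adjusted p = 0.439) under alcohol and −0.53 (edgeR adjusted p = 0.147) for co-treated against control. The former was −0.11 without alcohol replicate 2. The latter passed the threshold in 2 of 15 alternatives, without alcohol replicate 1 (edgeR adjusted p = 0.0440) and with only the groups compared (0.0485). In each of these 3 genes all exposed libraries were below both controls.

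FKBP4, an HSP90 partner at steroid receptors, and BAG6, which guards membrane proteins in the cytosol, had the smallest p in that list for co-treated against alcohol. FKBP4 lay at 22.8 and 20.0, 17.8 and 19.1, and 24.3 and 23.5 FPKM, with 0.37 (edgeR adjusted p = 0.836), and BAG6 had −0.21 (edgeR adjusted p = 0.900). The regulator HSF1 itself lay at 29.8 and 28.5, 34.2 and 28.1, and 37.2 and 29.7 FPKM.

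Of the 18 ER response genes that are not members, 0 were called, with medians of 0.02, −0.01 and −0.00 in the 3 comparisons. SIL1, the exchange factor of HSPA5, lay at 13.9 and 12.8, 16.1 and 21.0, and 21.7 and 17.8 FPKM, with 0.43 (edgeR adjusted p = 0.390) under alcohol and 0.51 (edgeR adjusted p = 0.238) for co-treated against control. DDIT3, the stress factor CHOP, lay at 8.20 and 8.26, 12.6 and 12.1, and 15.9 and 13.1 FPKM, with 0.50 (edgeR adjusted p = 0.491) under alcohol and 0.64 (edgeR adjusted p = 0.292) for co-treated against control. ATF4, which acts upstream of DDIT3, lay at 126 and 128, 129 and 124, and 107 and 109 FPKM, with −0.27 (edgeR adjusted p = 0.350) for co-treated against control. All 4 exposed libraries of SIL1 and DDIT3 were above both controls, and the co-treated libraries of ATF4 were below the other 4. ATF6 was at −0.18 under alcohol, and SYVN1 and HYOU1 were at −0.33 and −0.14 for co-treated against alcohol, with overlapping groups for the latter pair.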

How the data were processed

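RNA was sequenced from 6 libraries, 2 in each of 3 groups taken from the treatment label. The authors' deposited values are, per library and gene, an expected count and an FPKM, and a series table repeats the FPKM with gene symbols. The submitters' processing notes name HISAT2 2.0.4, Bowtie2 2.2.5, RSEM 1.2.12 and build hg38, without roles. Of the deposited expected counts, 33.9% were not whole (tolerance 0.005), and they were rounded for testing. No total of sequenced reads was used here, and the sums of 4898287 to 5051448 counts set the precision.

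The deposited FPKM values served for levels and shares. Counts were filtered with filterByExpr, which kept 14926 genes, scaled by TMM and tested two-sided with edgeR 4.0.16 (glmQLFit and glmQLFTest, R 4.3.3) in 1 fit of all libraries without covariates, with Benjamini-Hochberg adjustment over all genes tested and a threshold of 0.05. Both members and gene lists were chosen with earlier results of these data known. The genes named are HSPA1A, HSPA5, HSPB7 and HSP90AA1, the 15 with the highest control FPKM, those called, the 6 smallest unadjusted p in each direction and comparison, those sharing reads with another gene, and the leading gene of each family. Outside the members, the 3 smallest p per list and comparison are named. Other members given values to complete a group (HSPA1L, HSPB6, DNAJB1, DNAJA3 and DNAJC30), and HSF1 and CRYAB from outside the members, were added after their values were seen.

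Alternatives were 15, including DESeq2 1.42.0, limma 3.58.1 on log2(FPKM + 1) and log2(FPKM + 0.1), other filters and scalings, and leaving out each library. Replicates of 1 group had r = 0.975 to 0.978 in log2 CPM and differed beyond sampling noise (chi-square over its degrees of freedom 4.64 to 7.64). Samples that shared a replicate number across groups did not deviate together (r = 0.114, −0.016 and 0.041). With 2 libraries a group this cannot exclude a shared batch or differentiation, so whether the numbers pair the samples is not known. The count fit was tested on counts simulated for the same libraries, with changes planted in alcohol against control for 198 of 14702 genes. At an adjusted p under 0.05 it recovered 75.5% of log2 changes of 1 and 92% of log2 changes of 2, with 12 false calls. Smaller changes were not planted, so recovery at the size of the members' estimates was not tested. Promoter sequences came from RefSeq (GRCh38.p14), and shared 50-base windows from the longest coding GENCODE v29 transcript of each gene.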

Additional observations from a re-analysis of the deposited data

How the results depend on the processing

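In all 15 alternatives 0 members were called in any comparison. The smallest adjusted p was 0.0599 for HSP90AA1 in alcohol against control (edgeR, without alcohol replicate 1), 0.440 for HSPB1 in co-treated against alcohol (without alcohol replicate 2) and 0.0955 for DNAJA4 in co-treated against control (with a replicate block). The count of members at an unadjusted p under 0.05 moved more. For alcohol against control it was 7, with 2 to 11 when a library was left out (for control replicates 1 and 2 it was 2 and 3, for alcohol replicates 1 and 2 it was 11 and 4) and 4 with DESeq2. For co-treated against alcohol it was 1, with 2 under no expression filter, under a minimum of 10 counts, with a replicate block, with only the groups compared and with gene pairs summed, and 2 to 6 when a library was left out (6 without alcohol replicate 2). For co-treated against control it was 6, with 1 to 9 when a library was left out (1 without control replicate 1). The replicate block gave 7, 2 and 8 such members in the 3 comparisons and called none. Whether the numbers pair the samples is not known, so this fit is given only as 1 of the alternatives.

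Median log2 fold changes of the members when a library was left out ranged from −0.101 to −0.017 for alcohol against control (−0.017 without alcohol replicate 2), from −0.0414 to 0.0754 for co-treated against alcohol, and from −0.123 to 0.0116 for co-treated against control (−0.123 without co-treated replicate 2). On log2(FPKM + 1) with limma the medians were −0.05, 0.01 and 0.01. Over all 63 members, leaving out a library changed the sign for 27, 39 and 28 in the 3 comparisons. The 36 results named by p, some of the same gene in different comparisons, had the smallest p in their direction, and none was called. That choice in part fixed their stability in advance: 537 of their 540 alternative values kept direction and side of the threshold. The 3 others changed sign: DNAJC5G under alcohol ranged from −0.0009 (without alcohol replicate 2) to 1.17, HSPB1 for co-treated against alcohol from −0.61 to 0.11 (without alcohol replicate 1), and DNAJB14 for co-treated against control from −0.0029 (without co-treated replicate 2) to 0.38. With 2 libraries a group, the unadjusted 95% interval of a member of median precision reached 0.33 on either side, and after adjustment larger estimates also stayed uncalled, such as −0.44 for HSP90AA1 and −0.48 for DNAJC19.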
